A study of Homo sapiens with 6 samples.

Results

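The mitochondrial ribosomal protein genes, named MRPL for the large and MRPS for the small subunit, were examined in HCT116, a human cell line derived from a colorectal cancer. Members were the symbols made of MRPL or MRPS, digits and at most 1 letter A or B. This gave 76 of the 26255 symbols in the files, 48 of the large and 28 of the small subunit. MRPS18C ends in another letter and is therefore described with the other mitoribosomal proteins below.

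Mitochondrial ribosomes translate the few proteins that mitochondrial DNA encodes, all of them core subunits of the respiratory chain and of ATP synthase. The ribosomal RNAs come from mitochondrial DNA, whereas every protein of the mitoribosome is encoded in the nucleus, made in the cytosol and imported. Some of these proteins have bacterial counterparts and others are found only in mitochondria.

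The study asked which transcripts follow a reduction of the long noncoding RNA LINC01534. RNA was sequenced from parent HCT116 cells, from cells given the small interfering RNA (siRNA) siLINC01534-1 and from cells given siLINC01534-2, with 2 libraries in each group. The parent cells were the control, so a library of cells given a control siRNA is not part of these comparisons, and transfection itself and the siRNAs cannot be told apart from their target. All libraries came from 1 cell line, and the labels do not say whether 2 libraries of a group were separate cultures, so p-values measure the spread between these libraries, which may be technical.

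The files give FPKM, in which the fragments of a gene are scaled by transcript length and by the mapped fragments of the library. The depth, estimated from the steps between low values, was 8680000 to 10400000 reads per library, and the members had an estimated 160 (MRPL53) to 5700 (MRPS23) reads, with a median of 650. Such read numbers depend on the transcript length assumed. The longest annotated coding transcript has 5609 bases for MRPS23 and 496 for MRPL53. LINC01534 itself had 0.285 and 0.571 FPKM in parent, 0 and 0.283 FPKM with siLINC01534-1, and 0.66 and 0.551 FPKM with siLINC01534-2. The libraries labelled siLINC01534-2 did not have less of it than parent. All these values were under 1 FPKM, however, which is too low to show whether the RNA was reduced. By PCR, the study reports that both siRNAs reduced it against a control siRNA. The groups are called by their labels. Of 8 epithelial markers, 6 reached 1 FPKM, with a sum of 3460 and 3520 FPKM in parent, 2930 in both siLINC01534-1 libraries and 3520 and 3340 with siLINC01534-2, whereas VIL1 and CEACAM5 did not. Of 6 fibroblast markers only COL1A1 did, of 5 blood markers only CD68, and of 3 endothelial markers none. The sums of fibroblast markers were 3.11 and 3.14 FPKM in parent cells, 6.08 and 5.36 with siLINC01534-1 and 4.33 and 3.85 with siLINC01534-2, while DCN and LUM were at 0 in every library. The part of these markers in the results was not tested.

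In parent cells the members were expressed from 9.62 to 280 FPKM, a range of 29.1-fold. Their median was 65.2 FPKM, against 12.1 FPKM for all 12203 genes tested, and 74 of the 76 members lay above that value. The median of the large subunit was 65.2 FPKM and that of the small subunit 70.2 FPKM. The levels of the protein genes were therefore far from equal, although the mitoribosome holds most of these proteins in a single copy.

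The highest member was MRPL12, whose product forms the stalk that recruits translation factors, with 273 and 287 FPKM in the parent libraries. MRPL51, a protein found only in mitochondria, followed with 244 and 248 FPKM, and MRPL20, a protein with a bacterial counterpart, with 173 and 184 FPKM. These 3 genes differed from one another by more than the spread between the 2 libraries. At the other end, MRPS14 had 9.99 and 9.26 FPKM, MRPL22 had 12.3 and 11 FPKM and MRPS25 had 15.2 FPKM in both. Most members were in a narrower band, as 60 of the 76 had a mean between 30 and 150 FPKM, and neighbours in the middle of the order overlapped between the libraries. The median coefficient of variation between the parent libraries was 3.53%.

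**Figure D1:**
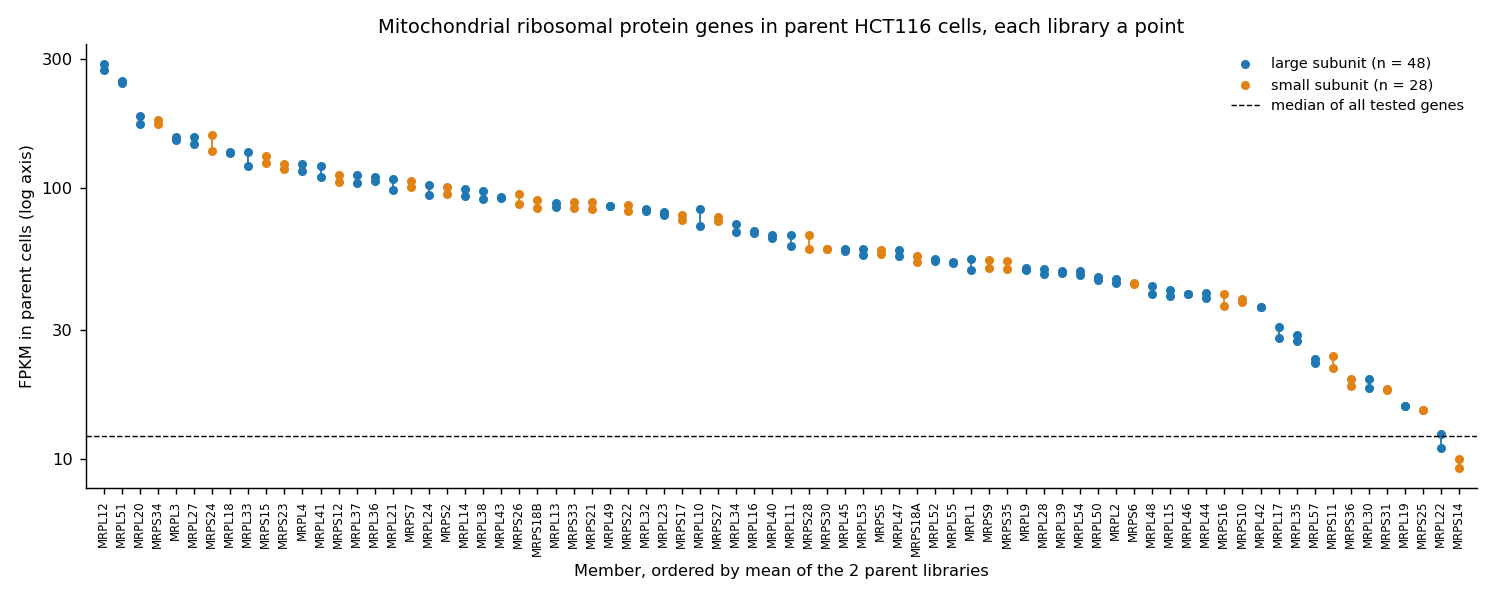
FPKM (log axis) of each of the 76 members in the 2 parent libraries (points joined by a line), ordered by their mean and coloured by subunit, with the median of all tested genes as a dashed line. MRPL12 is at the top with a mean of 280 FPKM, MRPS14 at the bottom with 9.62 FPKM, and both subunits are spread over the whole order.

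With siLINC01534-1 most members were lower than in parent cells. On the log2(FPKM + 1) scale, 46 of 76 members (60.5%) were lower and 3 (3.95%) higher at a limma adjusted p under 0.05. Over all genes tested, 24.5% were lower and 21.8% higher in this comparison. The median change of the members was -0.22, and that of all tested genes was 0.000314. After quantile normalization 34 members (44.7%) were lower and 5 higher, against 22.3% and 23.2% of all tested genes, and the median was -0.13. In 58 members both siLINC01534-1 libraries lay below both parent libraries, which was the case for 38.3% of all tested genes. Changes were mostly small, the middle 50% of the members lying between -0.404 and -0.0684. The count of 46 was 30 without the second parent library and 31 to 43 without any other library.

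Of the large subunit, 31 of 48 members (64.6%) were lower, with a median change of -0.23. MRPL14 fell the most. Its product lies on the face that meets the small subunit, where the assembly factor MALSU1 also binds. MRPL14 had 93.5 and 98.9 FPKM in parent cells, 36.1 and 37.8 with siLINC01534-1, and 96.1 and 93.9 with siLINC01534-2. The siLINC01534-1 libraries were thus at 38.4% of parent, far below the other 4 libraries, which overlapped. The change was -1.36 ± 0.045 (SE, n = 2 per group; limma adjusted p = 5.4e-05).

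MRPL38, a protein of the central protuberance, had 90.8 and 97.7 FPKM in parent cells, 52.9 and 51.6 with siLINC01534-1, and 92.3 and 88.1 with siLINC01534-2. Its change with siLINC01534-1 was -0.84 ± 0.049 (SE; limma adjusted p = 0.0002). MRPL18, which also belongs to the central protuberance, had 136 and 135 FPKM in parent cells, 81.2 and 91.5 with siLINC01534-1, and 126 and 121 with siLINC01534-2. It was not among the genes that the naming rule gave and was chosen after its values were seen, with a change of -0.65 ± 0.061 (SE; limma adjusted p = 0.00085). In both genes the siLINC01534-1 libraries were below the other 4.

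The 3 most abundant members fell by less than these. MRPL12 had 201 and 211 FPKM with siLINC01534-1, against 273 and 287 in parent and 268 and 237 with siLINC01534-2, a change of -0.44 ± 0.067 (SE; limma adjusted p = 0.0041). MRPL51 had 185 and 178 FPKM with siLINC01534-1, a change of -0.43 ± 0.044 (SE; limma adjusted p = 0.0011). MRPL20 had 150 and 155 FPKM, a change of -0.22 ± 0.042 (SE; limma adjusted p = 0.0089). The call of MRPL20 was lost when the first siLINC01534-1 library was left out (limma adjusted p = 0.054). The other large-subunit members that fell changed by -0.13 to -0.61. Among them were MRPL1 (-0.61), MRPL49 (-0.51), MRPL27 (-0.43), whose bacterial counterpart lies at the peptidyl transferase centre, and MRPL3 (-0.4).

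Of the small subunit, 15 of 28 members (53.6%) were lower and 2 higher with siLINC01534-1, with a median change of -0.15, which was -0.0645 after quantile normalization. MRPS28, the mitochondrial counterpart of bacterial protein S1, had 59.8 and 66.9 FPKM in parent cells, 23.8 and 26.6 with siLINC01534-1, and 64.1 and 64.0 with siLINC01534-2. The siLINC01534-1 libraries were at 39.8% of parent, a change of -1.3 ± 0.074 (SE; limma adjusted p = 0.00018). MRPS24, the counterpart of bacterial S3 near the entry of the messenger RNA, had 137 and 157 FPKM in parent cells, 77.8 and 78.3 with siLINC01534-1, and 131 and 139 with siLINC01534-2. Its parent libraries overlapped those of siLINC01534-2, while the siLINC01534-1 libraries were lower, by -0.9 ± 0.071 (SE; limma adjusted p = 0.00046). The genome annotation used here lists a read-through transcript of MRPS24 with the neighbouring gene URGCP, whose reads may be shared with it. MRPS34, chosen after its values were seen, had 172 and 179 FPKM in parent and 105 and 91.8 with siLINC01534-1, a change of -0.83 ± 0.068 (SE; limma adjusted p = 0.00052).

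MRPS9, the counterpart of bacterial S9 in the head of the small subunit, had 54.2 and 50.6 FPKM in parent cells, 30.6 and 30.7 with siLINC01534-1, and 43.0 and 41.6 with siLINC01534-2. Here the 3 groups did not overlap, and the change with siLINC01534-1 was -0.75 ± 0.047 (SE; limma adjusted p = 0.00022). Other small-subunit members that fell with siLINC01534-1 included MRPS26 (-0.47), MRPS12 (-0.47), which lies at the decoding site, MRPS5 (-0.35) and MRPS17 (-0.33).

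Only 3 members rose with siLINC01534-1. MRPS14 had 11.7 and 12.9 FPKM, against 9.99 and 9.26 in parent and 10.1 and 11.2 with siLINC01534-2. Its change was 0.32 ± 0.079 (SE; limma adjusted p = 0.021), and the call was lost without either parent library or the second siLINC01534-1 library (limma adjusted p = 0.055 to 0.11). MRPS10, a protein with a bacterial counterpart, had 46.2 and 44.5 FPKM, against 38.9 and 37.8 in parent and 37 and 36.5 with siLINC01534-2, a change of 0.24 ± 0.039 (SE; limma adjusted p = 0.0055). MRPL50, a protein found only in mitochondria, had 57.7 and 55.0 FPKM, against 47.1 and 45.7 in parent, a change of 0.27 ± 0.058 (SE; limma adjusted p = 0.013). Its call was lost without either parent library or the first siLINC01534-1 library (limma adjusted p = 0.052 to 0.076).

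**Figure D2:**
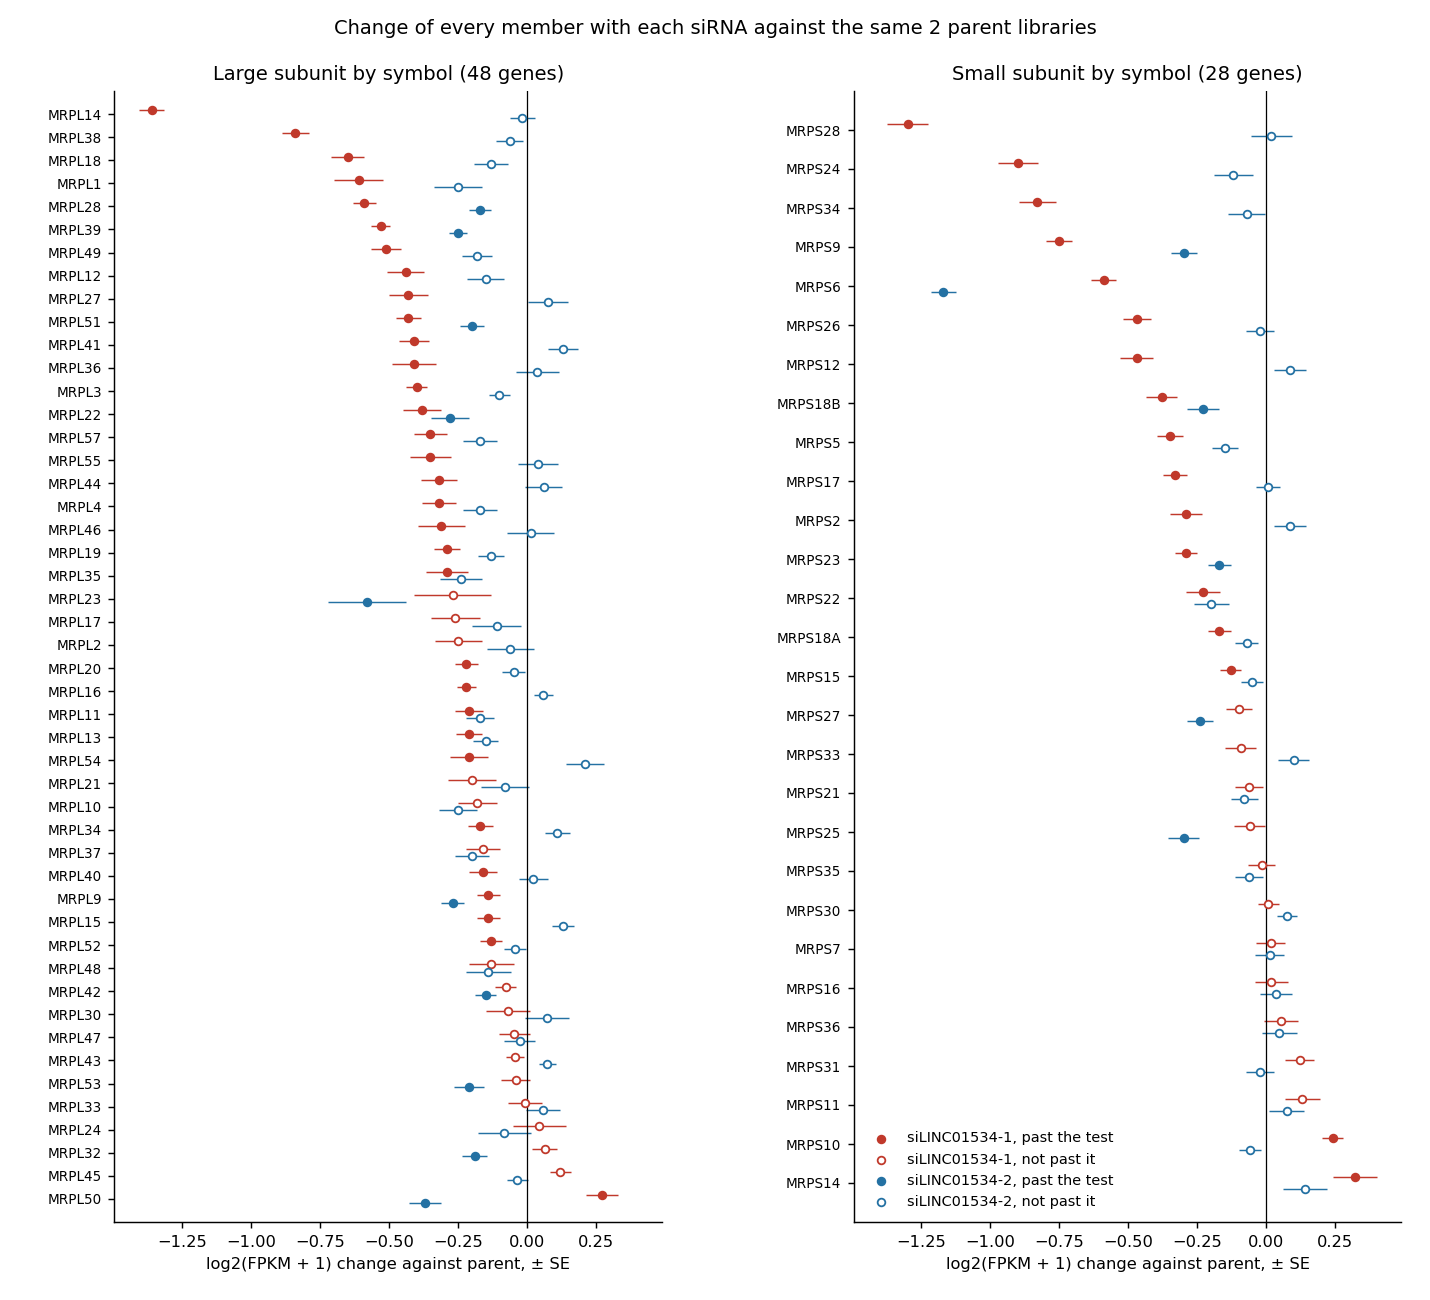
Change in log2(FPKM + 1) ± SE of each member with siLINC01534-1 (red) and siLINC01534-2 (blue) against the same 2 parent libraries, for the large (left) and the small subunit (right); filled points passed the test at an adjusted p under 0.05. With siLINC01534-1 the points run from -1.36 (MRPL14) to 0.32 (MRPS14), and with siLINC01534-2 most points are near 0 except MRPS6 at -1.17.

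With siLINC01534-2 the members moved less. At a limma adjusted p under 0.05, 16 of 76 members (21.1%) were lower and 0 higher, while 11.8% of all tested genes were lower and 11.1% higher. At an unadjusted p under 0.05, 29 members were lower and 3 higher, and limma was the only tool run. The median change of the members was -0.072, against 0.00177 for all tested genes. After quantile normalization 9 members (11.8%) were lower and 3 higher, and the share of all tested genes that was lower, 10.5%, was close to that of the members. The count of 16 also depended on single libraries: it was 3 without the first parent library, 4 without the second, 9 without either siLINC01534-1 library or the first siLINC01534-2 library, and 3 without the second siLINC01534-2 library. Over all tested genes, leaving out the same libraries reduced the share that was lower to between 3.03% and 8.13%. Of the large subunit 10 of 48 were lower (median -0.11), and of the small subunit 6 of 28 (median -0.0559).

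MRPS6, the counterpart of bacterial S6 on the platform of the small subunit, fell the most. It had 44.1 and 44.7 FPKM in parent cells, 29.6 and 28.7 with siLINC01534-1, and 19.7 and 18.7 with siLINC01534-2. The 3 groups were clearly separated, and siLINC01534-2 libraries were at 43.3% of parent. The change was -1.17 ± 0.044 with siLINC01534-2 (SE; limma adjusted p = 0.00024) and -0.59 ± 0.044 with siLINC01534-1 (SE; limma adjusted p = 0.00038). The annotation places SLC5A3, a myo-inositol transporter gene, inside the MRPS6 locus on the same strand, so reads of both genes may be shared. SLC5A3 was lower as well, by -0.31 with siLINC01534-1 (limma adjusted p = 0.018) and by -0.33 with siLINC01534-2 (limma adjusted p = 0.028).

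MRPL23, which surrounds the exit of the nascent peptide, had 79.5 and 81.4 FPKM in parent cells, 71.7 and 62.2 with siLINC01534-1, and 61.4 and 46.5 with siLINC01534-2. The 2 siLINC01534-2 libraries were far apart, and the change was -0.58 ± 0.14 (SE; limma adjusted p = 0.035). The call was lost without either parent library, without either siLINC01534-1 library and without the second siLINC01534-2 library (limma adjusted p = 0.068 to 0.15). MRPL50 had 37.6 and 34.1 FPKM with siLINC01534-2, below parent by -0.37 ± 0.058 (SE; limma adjusted p = 0.012). Without either parent library or the second siLINC01534-2 library its limma adjusted p was 0.053 to 0.076. MRPS25 had 12.6 and 11.7 FPKM with siLINC01534-2, against 15.2 in both parent libraries and 15.0 and 14.2 with siLINC01534-1. Its change was -0.3 ± 0.056 (SE; limma adjusted p = 0.019), with a limma adjusted p of 0.085 to 0.095 without either parent library or the second siLINC01534-2 library.

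Several members were lower than parent with each siRNA, and these comparisons share the 2 parent libraries, so their values are given side by side. MRPL39 had 49.2 and 48.6 FPKM in parent cells, 33.5 and 33.4 with siLINC01534-1, and 40.9 and 40.7 with siLINC01534-2. The replicates of this gene were close to each other and the groups did not overlap. The changes were -0.53 ± 0.034 (SE; limma adjusted p = 0.00024) and -0.25 ± 0.034 (SE; limma adjusted p = 0.0073), and both calls held whichever library was left out. MRPL28, a protein with a bacterial counterpart, had 50.1 and 48.0 FPKM in parent cells, 31.8 and 32.8 with siLINC01534-1, and 44.1 and 43.0 with siLINC01534-2. Its change was -0.59 ± 0.041 (SE; limma adjusted p = 0.00033) with siLINC01534-1 and -0.17 ± 0.041 (SE; limma adjusted p = 0.039) with siLINC01534-2. The siLINC01534-2 call of MRPL28 was lost whichever of the 6 libraries was left out (limma adjusted p = 0.066 to 0.15).

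MRPS9 was also lower with siLINC01534-2, by -0.3 ± 0.047 (SE; limma adjusted p = 0.011). Without the first parent library or the second siLINC01534-2 library the limma adjusted p of MRPS9 was 0.055 to 0.067. MRPL22, which lines the exit tunnel, had 8.96 and 8.4 FPKM with siLINC01534-1 and 9.53 and 9.3 with siLINC01534-2, against 12.3 and 11 in parent. Its changes were -0.38 ± 0.069 (SE; limma adjusted p = 0.0075) and -0.28 ± 0.069 (SE; limma adjusted p = 0.041). The first call was lost without the second siLINC01534-1 library (limma adjusted p = 0.052) and the second whichever library was left out (limma adjusted p = 0.07 to 0.16). MRPL51 had 222 and 207 FPKM with siLINC01534-2, against 244 and 248 in parent, a change of -0.2 ± 0.044 (SE; limma adjusted p = 0.031). That call was lost without any library other than the first siLINC01534-2 library (limma adjusted p = 0.059 to 0.13).

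**Figure D3:**
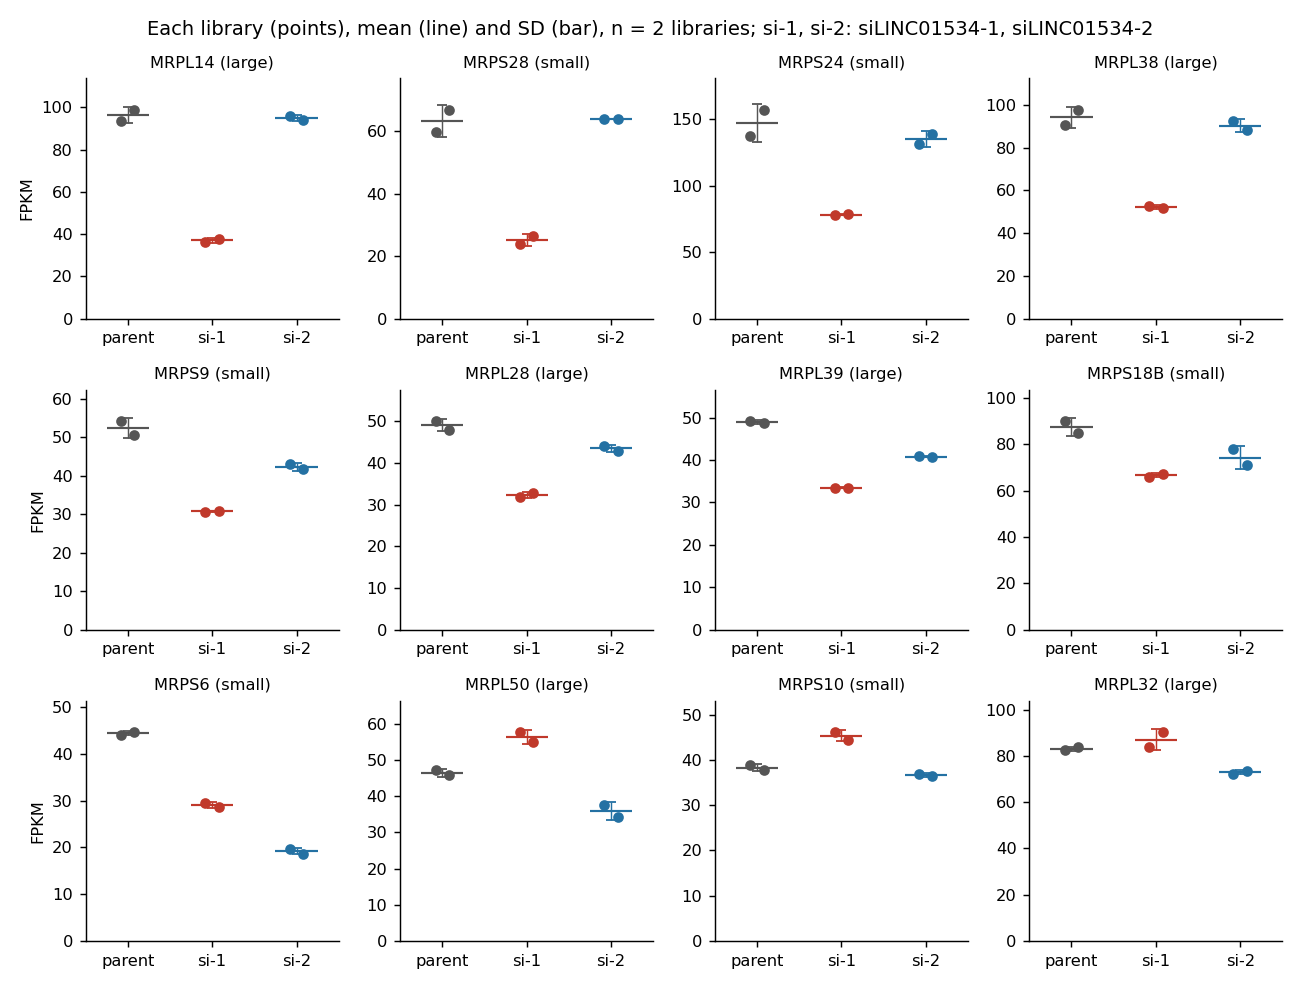
FPKM of 12 named members in each library (points), with the mean (line) and SD (bar) of 2 libraries in parent cells and with siLINC01534-1 (si-1) and siLINC01534-2 (si-2); each axis starts at 0. MRPL14, MRPS28, MRPS24 and MRPL38 are low only in the siLINC01534-1 libraries, MRPS6 is lowest with siLINC01534-2 (19.7 and 18.7 FPKM), and MRPL50 is above parent with siLINC01534-1 and below it with siLINC01534-2.

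The siRNAs were then compared with each other. The differences themselves do not use the parent libraries, but their p-values do, through the spread shared by all 6 libraries. With siLINC01534-1, 34 of 76 members (44.7%) were lower than with siLINC01534-2 and 6 (7.89%) were higher at a limma adjusted p under 0.05. Of all tested genes 22.3% were lower and 19.5% higher. The median difference of the members was -0.14, against 0.000237 for all tested genes. After quantile normalization 29 members (38.2%) were lower and 11 (14.5%) higher, against 20.2% and 22.1% of all tested genes. With only the 2 siRNA groups fitted, 29 members were lower and 5 higher, against 19.8% and 17.0% of all tested genes. The differences were -1.34 ± 0.045 for MRPL14 (SE; limma adjusted p = 8e-05), -1.31 ± 0.074 for MRPS28 (SE; limma adjusted p = 0.00027), -0.78 ± 0.049 for MRPL38 (SE; limma adjusted p = 0.00035) and -0.78 ± 0.071 for MRPS24 (SE; limma adjusted p = 0.00096). These 4 genes were at parent level with siLINC01534-2, within -0.12 to 0.0171 of it, and did not pass the test there.

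In the other direction, the difference between siLINC01534-1 and siLINC01534-2 was 0.64 ± 0.058 for MRPL50 (SE; limma adjusted p = 0.00097), 0.58 ± 0.044 for MRPS6 (SE; limma adjusted p = 0.00056) and 0.3 ± 0.039 for MRPS10 (SE; limma adjusted p = 0.0031). MRPL32, whose product is cut by the m-AAA protease before it joins the ribosome, had 82.6 and 83.9 FPKM in parent cells, 83.9 and 90.4 with siLINC01534-1, and 72.3 and 73.6 with siLINC01534-2. The groups given an siRNA did not overlap, with a difference of 0.25 ± 0.045 (SE; limma adjusted p = 0.0085). The remaining genes of the 6 were MRPS25 (0.24) and MRPL45 (0.15), which anchors the ribosome at the inner membrane. The call of MRPS25 was lost without either siLINC01534-1 library or the second siLINC01534-2 library (limma adjusted p = 0.053 to 0.099).

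The mean of both siRNAs was lower than parent in 37 members and higher in 1, MRPS14, at a limma adjusted p under 0.05, whereas 20.1% of all tested genes were lower and 17.1% higher. The median change was -0.16, against -0.00682 for all tested genes. The rise of MRPS14 by 0.23 ± 0.068 (SE; limma adjusted p = 0.047) was not called once any single library was left out, and the count of lower members was then 18 to 31. It was 18 without the first and 19 without the second parent library, and 24 without the second siLINC01534-1 library. With the 4 siRNA libraries pooled into a single group, whose spread then includes what sets the siRNAs apart, 0 members were lower and 0 higher by limma, and 0.819% of all tested genes were lower.

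Taking the subunits by symbol, the large subunit exceeded the small one by 0.157 and 0.144 in mean log2(FPKM + 1) in the parent libraries, by 0.122 and 0.119 with siLINC01534-1, and by 0.165 and 0.134 with siLINC01534-2. Both siLINC01534-1 values were below both parent values, whereas siLINC01534-2 values overlapped them. The symbols do not fully follow the structure, since MRPS30 and MRPS18A are found in the large subunit and MRPS36 is a component of the 2-oxoglutarate dehydrogenase complex. With these genes placed by structure, the parent libraries had an excess of 0.084 and 0.066, those of siLINC01534-1 one of 0.08 and 0.079, and those of siLINC01534-2 one of 0.108 and 0.077, so that parent and siLINC01534-1 overlapped. The median change with siLINC01534-1 was then -0.22 for the large and -0.23 for the small subunit. The difference between subunits by symbol thus rested on the placing of these 3 genes.

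These genes themselves changed little. MRPS30 had 59.8 and 59.4 FPKM in parent cells, 58.8 and 61.0 with siLINC01534-1, and 62.0 and 63.6 with siLINC01534-2, with changes of 0.00733 and 0.0753 that did not pass the test. MRPS36 had 19.7 and 18.5 FPKM in parent and 19 to 20.5 in the other libraries. MRPS18A was lower with siLINC01534-1, at 48.1 and 48.3 FPKM against 53.1 and 55.9 in parent, by -0.17 ± 0.043 (SE; limma adjusted p = 0.023), and its call was lost without the second parent library or either siLINC01534-1 library (limma adjusted p = 0.084 to 0.099). Its paralog MRPS18B, which stays in the small subunit, had 90 and 84.6 FPKM in parent cells, 66.0 and 67.1 with siLINC01534-1, and 77.7 and 70.8 with siLINC01534-2. MRPS18B changed by -0.38 ± 0.057 (SE; limma adjusted p = 0.0038) and -0.23 ± 0.057 (SE; limma adjusted p = 0.039), the latter call being lost without any library other than the first siLINC01534-2 library (limma adjusted p = 0.082 to 0.16).

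By descent, 29 of 45 members with a bacterial counterpart (64.4%) were lower with siLINC01534-1 (median -0.26). Of the members found only in mitochondria, 15 of 28 (53.6%) were (median -0.16). With siLINC01534-2 the counts were 7 of 45 (15.6%, median -0.0799) and 8 of 28 (28.6%, median -0.0677). Of all tested genes, 24.5% were lower with siLINC01534-1 and 11.8% with siLINC01534-2. This grouping was added after the values were seen, and 3 members with uncertain placing were left out of it. A further 21 members passed the test with neither siRNA, among them MRPL33, with 121 to 136 FPKM over all 6 libraries, and MRPS7, with 100 to 109 FPKM, both of which overlapped in the 3 groups.

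The cytosolic ribosomal proteins had medians above 0. Of 79 tested genes of cytosolic ribosomal proteins, 31 (39.2%) were higher and 4 (5.06%) lower with siLINC01534-1 (median 0.11). With siLINC01534-2, 23 (29.1%) were higher and 1 (1.27%) lower (median 0.12). Of all tested genes, 21.8% were higher and 24.5% lower with siLINC01534-1, and 11.1% and 11.8% with siLINC01534-2. The members together summed to 5750 and 5960 FPKM in parent. With siLINC01534-1 the sum was 4770 and 4740 FPKM, below both other groups, and with siLINC01534-2 it was 5640 and 5420 FPKM. Of the 38 nuclear genes of respiratory complex I, 14 (36.8%) were lower and 5 (13.2%) higher with siLINC01534-1 (median -0.0663). With siLINC01534-2, 11 (28.9%) were lower and 0 higher (median -0.12). After quantile normalization the direction for complex I with siLINC01534-1 was lost, with 11 higher and 8 lower and a median of 0.000308, where all tested genes had 23.2% higher and 22.3% lower. The cytosolic ribosomal proteins then had 18 higher (22.8%) with siLINC01534-1 and 9 (11.4%) with siLINC01534-2, near the 23.2% and 10.3% of all tested genes, with 4 and 1 lower and medians of 0.118 and 0.0942. The members had the lowest median of these 3 lists with siLINC01534-1, while complex I genes had it with siLINC01534-2.

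**Figure D4:**
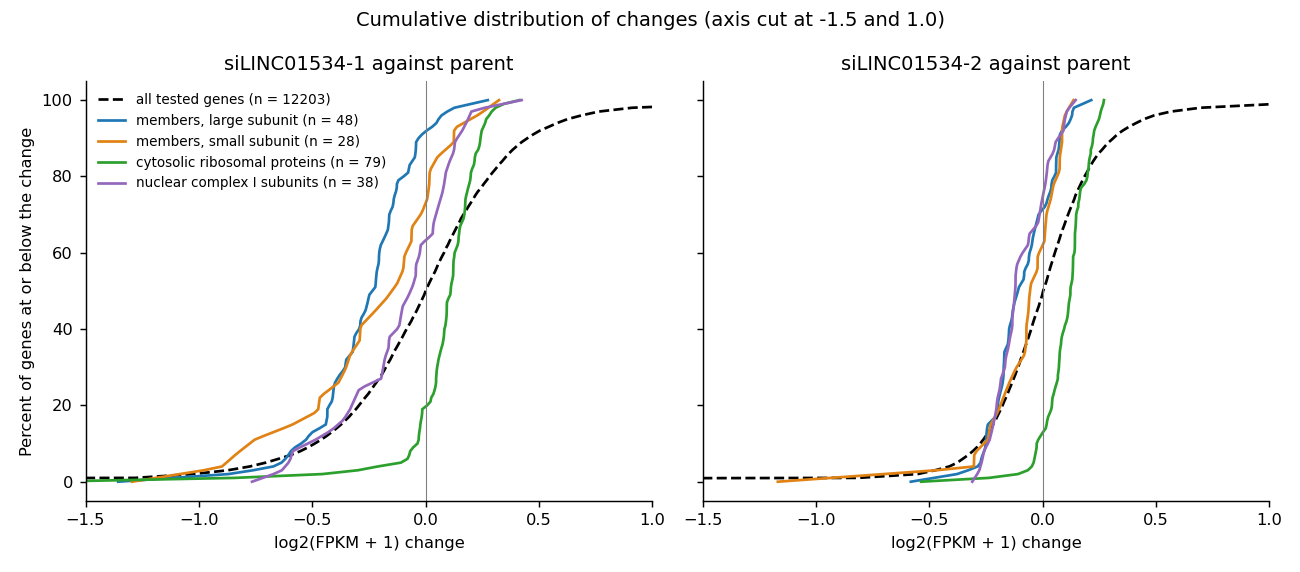
Cumulative distribution of log2(FPKM + 1) changes against parent for siLINC01534-1 (left) and siLINC01534-2 (right), for members of each subunit, cytosolic ribosomal proteins, complex I subunits and all 12203 tested genes (dashed); the axis is cut at -1.5 and 1.0. With siLINC01534-1 the members lie left of all tested genes (medians -0.23 and -0.15), and the cytosolic ribosomal proteins have a median right of it (0.11).

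The mitoribosomal proteins that carry other names moved in both directions. Of these 7 genes, 4 (57.1%) were lower and 1 (14.3%) higher with siLINC01534-1 (median -0.24), against 24.5% and 21.8% of all tested genes. With siLINC01534-2, 1 (14.3%) was lower, against 11.8%. After quantile normalization 2 were lower and 1 higher with siLINC01534-1 (median -0.126). DAP3, a GTP-binding protein of the small subunit, rose from 65.9 and 67.4 FPKM to 97.2 and 109 with siLINC01534-1, a change of 0.62 (limma adjusted p = 0.0008), and had 64.5 and 63.7 FPKM with siLINC01534-2. AURKAIP1 fell by 0.49 (limma adjusted p = 0.0029) and MRPS18C by 0.52 (limma adjusted p = 0.00075) with siLINC01534-1. Both were at parent level with siLINC01534-2, with changes of 0.06 and -0.07.

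The counts of the lists that follow stand against the 24.5% lower and 21.8% higher of all tested genes with siLINC01534-1, and the 11.8% and 11.1% with siLINC01534-2. Among 26 genes of mitoribosome assembly and ribosomal RNA modification, 9 (34.6%) were lower and 2 higher with siLINC01534-1 (median -0.15), and 3 were lower and 2 higher with siLINC01534-2 (median -0.0198). MALSU1, which binds to MRPL14 during assembly of the large subunit, had 78.4 and 75.5 FPKM in parent cells, 24.6 and 24.4 with siLINC01534-1, and 70.2 and 66.6 with siLINC01534-2. It fell by 1.61 with siLINC01534-1 (limma adjusted p = 3.4e-05), slightly more than MRPL14 itself. METTL15, a methyltransferase for ribosomal RNA, fell by 0.72 (limma adjusted p = 0.0016). Of 17 tested genes of mitochondrial translation factors, 3 (17.6%) were lower with siLINC01534-1 and 5 (29.4%) with siLINC01534-2, and 0 were higher with either at a limma adjusted p under 0.05. C12orf65, a release factor homologue, fell by 0.88 and 0.59, and GFM1, an elongation factor, changed by -0.07 with siLINC01534-1 and fell by 0.6 with siLINC01534-2. Of 14 genes for transcription and RNA processing in mitochondria, 4 were lower and 4 higher with siLINC01534-1 (28.6% each, near the shares of all tested genes), and 3 were lower with siLINC01534-2 (21.4%). Among those that fell with siLINC01534-1 was TFAM, which packages mitochondrial DNA and starts its transcription. TFAM had 18.7 and 17.3 FPKM in parent cells, 8.6 and 7.85 with siLINC01534-1, and 17.0 and 17.7 with siLINC01534-2, a fall by 1.04 with siLINC01534-1 (limma adjusted p = 0.00022).

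Of 10 tested nuclear regulators of mitochondrial genes, 4 were lower and 2 higher with siLINC01534-1, and 2 were lower and 2 higher with siLINC01534-2. Factors whose motifs are searched in the promoters below are given for that reason. YY1 fell by 0.51 with siLINC01534-1 (limma adjusted p = 0.00039), and GABPA, the DNA-binding subunit of an ETS factor known to act on such genes, fell by 0.18 (limma adjusted p = 0.028). NRF1 fell by 0.25 with siLINC01534-1 (limma adjusted p = 0.047) and changed by -0.11 with siLINC01534-2 (limma adjusted p = 0.36). With siLINC01534-2 YY1 changed by 0.05 (limma adjusted p = 0.39) and GABPA rose by 0.27 (limma adjusted p = 0.017).

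An siRNA can also act on transcripts that pair only with its seed, bases 2 to 8 of the antisense strand, as a microRNA does. The letters that pair with the seed of siLINC01534-1 are GAATAAA, which hold the common polyadenylation signal AATAAA, and those for siLINC01534-2 are TTCGAGT. In the GENCODE annotation on GRCh37, 17 of 76 members (22.4%) had GAATAAA in the 3′ untranslated region of their longest coding transcript, against 26.7% of 10590 tested genes, and 1 member (1.32%), MRPS22, had TTCGAGT, against 1.91%. The 3′ untranslated regions of the members were short, with a median of 530 bases against 1430 over the tested genes. Sites of 4 of the members that changed most with siLINC01534-1 are shown because these genes carry the falls described above, with GAATAAA in capitals and on the strand of the transcript.

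MRPL14: atcctgtgagaGAATAAAtgtattcattt
MRPL38: gtggggaatgtGAATAAAcatgatttctt
MRPS24: catctgctattGAATAAAgaccttctat
MRPS34: gctatgaaaggGAATAAAgagaaaagaag

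These windows lie on the minus strand of GRCh37, at chr6:44081432-44081460 for MRPL14, chr17:73894731-73894759 for MRPL38, chr7:43906161-43906188 for MRPS24 and chr16:1821898-1821926 for MRPS34. In MRPL38, MRPS24 and MRPS34 the letters ended 17, 10 and 18 bases before the annotated end of the transcript, and in MRPL14 255 bases before it. For contrast, sites of members that changed less with siLINC01534-1 are MRPL20, at chr1:1340653-1340681 on the minus strand, MRPS36, at chr5:68525701-68525729 on the plus strand, and MRPS33, at chr7:140702415-140702443 on the minus strand.

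MRPL20: cccgtctgacaGAATAAAgaaagccatgg
MRPS36: atatagcatagGAATAAAgatttcactag
MRPS33: tttccaagaaaGAATAAAtcaaaatttga

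The site shown of MRPS33, the nearer of its 2, ended 16 bases before the end of its transcript, between those of MRPS24 (10 bases) and MRPL38 (17 bases), and MRPS33 had 84.4 and 88.7 FPKM in parent and 81.1 in both siLINC01534-1 libraries, a change of -0.093 that did not pass the test. MRPL20 changed by -0.22, which passed the test, and MRPS36 by 0.0532, which did not. The transcript that GENCODE calls canonical lacks the letters in MRPL20 and has them in the other members shown.

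The 5 members with the largest falls with siLINC01534-1 (MRPL14, MRPS28, MRPS24, MRPL38 and MRPS34) all had GAATAAA, and the next, MRPS9, did not. Of the 17 members with the letters, 13 (76.5%) were lower with siLINC01534-1 and 0 higher, with a median change of -0.35. Of the 59 members without them, 33 (55.9%) were lower and 3 (5.08%) higher, with a median of -0.2. The corresponding medians over all tested genes were -0.14 with the letters and 0.0311 without. Of all tested genes with the letters, 41.3% were lower and 14.6% higher with siLINC01534-1, and of those without them 20.6% and 25.5%. With siLINC01534-2 the members had a median of -0.072 both with and without GAATAAA. With the transcript that GENCODE calls canonical, 14 members (18.4%) had the letters, and the medians with siLINC01534-1 were -0.37 with and -0.21 without. These are descriptions, and whether the siRNA acts at these sites was not tested. Of the other genes named above, MALSU1, TFAM, YY1 and GABPA, which fell with siLINC01534-1, had GAATAAA, and so did GFM1, which changed by -0.07. METTL15 (-0.72) and AURKAIP1 (-0.49), which fell, did not have it, nor did DAP3, which rose. Genes such as C12orf65, MRPS18C and NRF1, which also fell, are not placed here, so the list is partial.

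**Figure D5:**
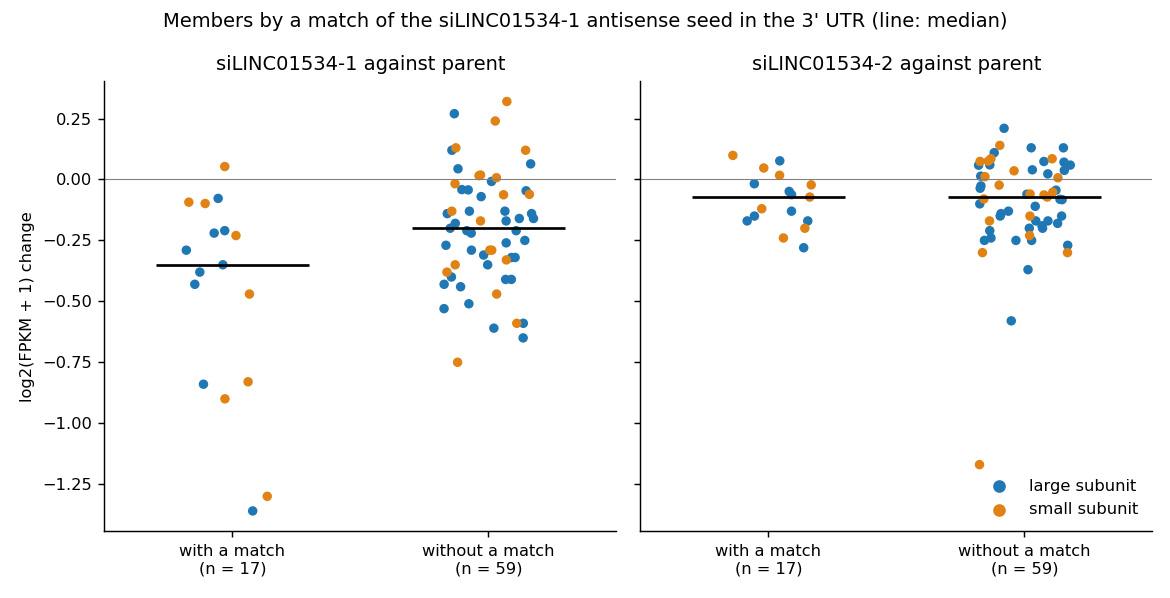
Change in log2(FPKM + 1) of each member (points, coloured by subunit) with siLINC01534-1 (left) and siLINC01534-2 (right), for members with and without a match of the siLINC01534-1 antisense seed in the 3′ untranslated region; lines are medians. With siLINC01534-1 the medians are -0.35 and -0.2, and with siLINC01534-2 both are -0.072.

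Promoters of 67 of the 76 members were in the RefSeq table of GRCh38.p14, as 250 bases before to 50 bases after the start of transcription. CCGGAAG, the core of sites for ETS factors, was found on either strand in 27 (40.3%), against 20.3% of the promoters of tested genes and 10.7% of all promoters. AAGATGG, a YY1 motif, was found in 23 (34.3%), against 8.1% and 6.06%, and in 16 of them it lay just after the start on the strand of the gene. GCGCATGC, part of the NRF1 site, was found in 7.46% (5.73% of tested genes and 3.27% of all), CCAAT in 28.4% (36.7% and 35.7%) and CACGTG in 7.46% (10.5% and 7.43%). In 0 of the 67 promoters did CCGGAAG and AAGATGG share bases, and 17 held none of the 5 motifs.

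The stretch from 100 bases before to 30 bases after the start is shown for 4 members that moved differently, written on the strand of the gene, with any of the 5 motifs in capitals (a motif of the other strand appears as its reverse complement). MRPL38 fell with siLINC01534-1, MRPS18B was lower with each siRNA, MRPS10 rose with siLINC01534-1 and MRPL50 differed most in direction. They lie at chr17:75904855-75904984 (minus strand), chr6:30617740-30617869 (plus strand), chr6:42217832-42217961 (minus strand) and chr9:101398589-101398718 (minus strand) of GRCh38.p14.

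MRPL38: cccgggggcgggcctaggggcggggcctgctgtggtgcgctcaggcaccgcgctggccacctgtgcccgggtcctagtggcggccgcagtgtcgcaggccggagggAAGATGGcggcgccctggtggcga
MRPS18B: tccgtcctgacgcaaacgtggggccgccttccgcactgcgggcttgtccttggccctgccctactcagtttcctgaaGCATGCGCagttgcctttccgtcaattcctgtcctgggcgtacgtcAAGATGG
MRPS10: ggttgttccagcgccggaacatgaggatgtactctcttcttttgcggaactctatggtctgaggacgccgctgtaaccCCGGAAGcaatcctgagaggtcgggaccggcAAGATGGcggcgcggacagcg
MRPL50: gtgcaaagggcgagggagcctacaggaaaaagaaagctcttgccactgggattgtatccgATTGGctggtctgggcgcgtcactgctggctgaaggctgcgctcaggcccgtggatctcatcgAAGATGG

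All 4 were chosen with their values known and held AAGATGG near the start, whereas 23 of the 67 member promoters held it at all. Whether the motif has a part in the changes was not tested. Of the 27 members with CCGGAAG in the promoter, 16 were lower with siLINC01534-1 (median -0.17), and of the 40 without it 26 were (median -0.3). Of the 23 members with AAGATGG, 13 were lower (median -0.17), and of the 44 without it 29 were (median -0.27). A match of letters does not show that a factor binds there.

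Members often shared a promoter region with a neighbour. A protein-coding gene started within 1000 bases in the opposite direction for 18 of 76 members (23.7%), against 13.3% of 10602 tested protein-coding genes. MRPL46 and MRPS11 start 63 bases apart, and MRPL46 was lower with siLINC01534-1 (-0.31; limma adjusted p = 0.029), while MRPS11 changed by 0.13 (limma adjusted p = 0.15). MRPL50 starts 233 bases from ZNF189, which rose by 0.61 with siLINC01534-1 (limma adjusted p = 0.0006) and by 0.21 with siLINC01534-2 (limma adjusted p = 0.037), so the neighbours moved apart with siLINC01534-2. MRPL18 starts 109 bases from TCP1, a chaperonin subunit gene, which was lower with both siRNAs (-0.35 and -0.3; limma adjusted p = 0.0016 and 0.0072). MRPL49 starts 6 bases from FAU, which encodes a cytosolic ribosomal protein, and MRPL49 fell by 0.51 with siLINC01534-1 while FAU changed by -0.0957 (limma adjusted p = 0.15). Of 12 tested neighbours that are not members, 4 were lower and 3 higher with siLINC01534-1, against 24.5% and 21.8% of all tested genes. Besides TCP1, the lower neighbours were SKA3 (-0.59; limma adjusted p = 0.0017), NDUFS6 (-0.36; limma adjusted p = 0.028) and EME1 (-0.34; limma adjusted p = 0.0091). The members beside them, MRPL57 (-0.35), MRPL36 (-0.41) and MRPL27 (-0.43), were lower as well, as were 60.5% of all members.

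Members lie on 21 chromosomes of GRCh37, with at most 8 on one. The annotation gave 35 members a pseudogene of their own name and 18 an overlapping gene on the same strand, so reads could have been divided or shared, and the annotation that the authors counted with is not given in the sources used here. Among the 32 members with neither, the median change was -0.26 with siLINC01534-1 and -0.0352 with siLINC01534-2. With overlaps with genes that have no symbol allowed, these were 38 members with medians of -0.29 and -0.053.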

How the data were processed

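RNA-seq libraries of HCT116 cells (parent, siLINC01534-1 and siLINC01534-2, 2 each) were analysed. The authors prepared stranded poly(A) libraries, read them from a single end, aligned the reads to hg19 with TopHat2 2.0.13, Bowtie2 2.2.3 and SAMtools 0.1.19 and deposited the FPKM of Cuffnorm (Cufflinks 2.2.1, per the submitters' processing notes) for each gene symbol. FPKM are scaled for transcript length and library size, so a change is relative to the other genes. The files hold no counts, and depth and reads were estimated from the steps between low values of 126 genes with 1 annotated transcript. The RNA kit and the number of cultures differ between the labels and the study's methods.

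The deposited FPKM were put on the log2(FPKM + 1) scale, and 12203 genes whose FPKM averaged 1 or more over the 6 libraries were tested with limma 3.58.1 in R 4.3.3 (1 mean per group, spread shared by all 6 libraries, eBayes with a trend, two-sided, Benjamini-Hochberg over all tested genes, threshold 0.05). All 76 members passed the filter. Folds on this scale understate changes of low genes. The fit was tested on simulated data. Lists were described by counts and medians. No mitochondrially encoded gene of the list was in the files. Members, lists and tests were chosen with earlier results of these data known. Members were named by fixed rules: the 3 highest and 3 lowest in parent; up to 4 called changes in each direction for each siRNA and between the siRNAs, the largest with groups not overlapping; members called in opposite directions; up to 4 called in the same direction with both; and MRPS18A, MRPS18B, MRPS30 and MRPS36, whose place needs a word beside the symbol. Other members named in the text do not come from these rules and were named with their values known. Sequence matches used GENCODE 44 lifted to GRCh37 and RefSeq promoters of GRCh38.p14 (Python 3.11.15, pandas 2.3.3, numpy 2.4.6). Alternatives were other pseudocounts, filters, scalings, variance settings, a replicate block, and leaving out each library. The canonical transcript for seed matches, the members without them, the set that allows overlaps with genes without a symbol and the grouping by descent were chosen after seeing the data.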

Additional observations from a re-analysis of the deposited data

Results flagged for a closer look

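In the direct test of siLINC01534-1 against siLINC01534-2 (limma, adjusted p under 0.05), 34 members were lower and 6 higher, and 15 of the members that the naming rule gave were among them. The log2(FPKM + 1) value of siLINC01534-1 minus siLINC01534-2 was -1.34 for MRPL14, -1.31 for MRPS28, -0.78 for MRPL38 and -0.78 for MRPS24, the 4 lowest. It was 0.64 for MRPL50, 0.58 for MRPS6, 0.3 for MRPS10 and 0.25 for MRPL32, the 4 highest. These 8 calls held whichever of the 6 libraries was left out. The lowest 4 genes were near parent with siLINC01534-2 (-0.0176 for MRPL14, 0.0171 for MRPS28, -0.062 for MRPL38 and -0.12 for MRPS24), MRPS6 was below parent with both siRNAs, and MRPL50 was above parent with siLINC01534-1 and below it with siLINC01534-2.

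The other 7 differences were -0.45 for MRPS9, -0.42 for MRPL28, -0.28 for MRPL39, -0.29 for MRPL12, -0.24 for MRPL51, -0.17 for MRPL20 and 0.24 for MRPS25. Those of MRPS9, MRPL28 and MRPL39 held whichever library was left out. Those of MRPL12, MRPL51, MRPL20 and MRPS25 were lost without at least 1 siRNA library, with a limma adjusted p of 0.061 to 0.11 for MRPL12, 0.06 for MRPL51, 0.063 to 0.11 for MRPL20 and 0.053 to 0.099 for MRPS25.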

How the results depend on the processing

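No change of a named member reversed under any alternative run, and 25 of 43 named calls held whichever library was left out. With siLINC01534-1 quantile normalization gave 5 higher members and medians of -0.13 for all members, -0.17 for the large and -0.0645 for the small subunit. With siLINC01534-2 it gave 3 higher and 9 lower and a median of -0.0384. Between the siRNAs it gave 11 higher (14.5%, against 22.1% of all tested genes) and medians of -0.0955 for all and -0.00356 for the small subunit. For the mean of both it gave 2 higher (2.63%, against 17.3% of all tested genes) and a median of -0.10. Centring each library gave a median of -0.12 between the siRNAs. The siLINC01534-2 count of lower members was 9 (11.8%) without a filter on low values, against 5.8% of all tested genes. Without a trend it was 7 (9.21%), against 9.46%, so the share of the members was no higher there. With only the compared groups fitted it was 9 (11.8%), against 7.99%. For the mean of both, 0 members were higher without a filter, without a trend and with a replicate block. Of all tested genes, 9.31%, 16.3% and 14.5% were higher there. With the 4 siRNA libraries as 1 group 0 members were higher or lower, against 2.14% and 0.819% of all tested genes. The 32 members with no pseudogene or overlapping gene had medians of -0.26 (siLINC01534-1), -0.0352 (siLINC01534-2), -0.21 (between the siRNAs) and -0.17 (mean of both). The 38 with overlaps with genes without a symbol allowed had -0.29, -0.053, -0.28 and -0.18, and those without GAATAAA had -0.20 with siLINC01534-1. With subunits by structure the large minus small difference of medians with siLINC01534-1 reversed to 0.00758, because 2 genes change side and 1 is left out. The cause of the other shifts was not tested.

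Leaving out 1 library gave, with siLINC01534-1, 30 to 43 lower and 1 to 3 higher members and medians of -0.26 to -0.19. With siLINC01534-2 it gave 3 to 9 lower and 0 higher and medians of -0.11 to -0.0365 (small subunit -0.0858 to -0.0181). Between the siRNAs it gave 24 to 34 lower and 4 to 6 higher and medians of -0.15 to -0.0956, and for the mean of both 18 to 31 lower, 0 higher and medians of -0.18 to -0.13. A lone library is assumed there to vary like the other groups. The siLINC01534-1 count of 30 was without the second parent library.

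Deviations of libraries with the same replicate number correlated at 0.114, 0.027 and -0.0456. These values show no clear pairing by number, but with 2 libraries per group they cannot exclude a weak one. With the replicate block 41 members (53.9%) were lower with siLINC01534-1 and 14 (18.4%) with siLINC01534-2. Between the siRNAs 30 (39.5%) were lower, and for the mean of both 34 (44.7%). Of all tested genes, 22.4%, 8.24%, 19.6% and 17.4% were lower in these comparisons. Of the named calls, that of MRPL28 with siLINC01534-2 was lost with the block (limma adjusted p = 0.074). With 2 libraries per group, small changes are uncertain, in low members such as MRPS14 and also in higher ones such as MRPL23. The SE against parent was 0.079 for MRPS14 (mean of 9.62 FPKM in parent) and 0.14 for MRPL23 (80.5 FPKM).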
